A study of Mus musculus with 6 samples.

Results

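The results describe 9 developmental transcription factor genes, listed as factors of hypothalamic or suprachiasmatic nucleus (SCN) identity. They are Lhx1, Lhx2, Six3, Six6, Zfhx3, Nkx2-2, Rax, Vax1 and Nr2f1. They were chosen by name, as every probe set of the array whose platform gene symbol was one of the 9, which gave 14 probe sets among 22626 and 9 genes among the 12393 with a probe set of 1 symbol. Light pulse mice received 30 minutes of light at 2400 lux beginning 1 hour after lights off, and sham light pulse mice received a dark pulse at the same time. Both groups were adult male C57BL/6 mice of 2 to 4 months, kept in a cycle of 14 hours of light and 10 hours of darkness, and tissue was taken directly after the pulse, 1.5 hours after lights off. The SCN was cut by laser capture from 6 sections of 12 µm per mouse, and each array carried RNA pooled from 3 mice (18 sections), amplified over 2 rounds from 1 ng. There were 3 arrays per group, so that p-values measure the spread between pools and not between single mice.

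The SCN is a small pair of hypothalamic nuclei that hold the main circadian clock of mammals and receive light information from the retina. Its neurons arise from the ventral anterior hypothalamus, where homeodomain factors that also act in eye and forebrain development set regional identity before birth. Some of these factors stay expressed in the adult nucleus, and Lhx1 and Zfhx3 are known to influence the neuropeptides through which its neurons communicate.

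Microarray Suite (MAS5) signals, a linear intensity per probe set scaled on each array, had a trimmed mean (2% left out at each end) of 490.8 to 494.6 on the 6 arrays. Over the 10000 probe sets kept by the signal filter described below, log2 signals of 2 arrays correlated with an r of 0.897 to 0.937 within groups. Between groups r was 0.888 to 0.939. For scale, Fos, an immediate-early gene induced by light in the SCN, was higher after the light pulse by 4.94 on the log2 scale (SE 0.31, limma adjusted p = 3.03e-06) and Egr1 by 4.84 (SE 0.32, limma adjusted p = 3.03e-06). Of 14 SCN peptide and coupling genes chosen as markers, 11 were on the array and all 11 passed the signal filter described below, with Vip and Grp the highest. One library stood apart in a marker of choroid plexus, the tissue that makes cerebrospinal fluid: Ttr, the transthyretin gene, had a signal of 110323 on light pulse array 3 and of 63.0 to 295.6 on the other 5 arrays. The other choroid plexus markers on the array were far dimmer on light pulse array 3. Folr1 read 147.3 there, Kl 72.7 (brighter probe set), Aqp1 40.3 and Otx2 3.7. For Folr1, Kl and Aqp1 this was the highest of the 6 arrays, and for Otx2 it was not. The filter kept no probe set of these genes. Without light pulse array 3, 0 of the 9 kept probe sets described below were called either. Whether that pool held choroid plexus tissue, and any part of it in the results, was not tested.

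The 9 genes covered nearly the whole range of array signal. Ranking each probe set among all others of its array, and taking for each gene its probe set with the highest mean log2 signal, the median percentile over the 6 arrays was 95.05 for Lhx1, 93.6 for Six6, 93.1 for Zfhx3, 88.5 for Nr2f1, 88.2 for Six3, 70.7 for Vax1, 47.4 for Nkx2-2, 29.3 for Rax and 3.97 for Lhx2. The ranges of Lhx1 (94.3 to 95.8), Six6 (93.0 to 94.3) and Zfhx3 (91.3 to 95.3) lay close together. Array by array Lhx1 was above Six6 on 6 of 6 arrays, Lhx1 was above Zfhx3 on 4 of 6 and Six6 was above Zfhx3 on 3 of 6. Nr2f1 (84.2 to 91.0) and Six3 (84.3 to 92.5) overlapped, with Nr2f1 above Six3 on 2 of 6 arrays, and the ranges of both lay above that of Vax1 (51.4 to 83.9). Vax1, Nkx2-2 (39.2 to 54.8) and Rax (0.862 to 43.6) each overlapped the next in the order. The order holds for the brightest probe set only: taken as the mean over all probe sets of a gene, Six3 was at 43.31, below Vax1 and Nkx2-2, Zfhx3 at 77.14, below Nr2f1, and Lhx1 at 88.24, below Six6 and Nr2f1. Percentiles place a probe set on its array and are not amounts of RNA, because probes differ in how strongly they bind.

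**Figure D1:**
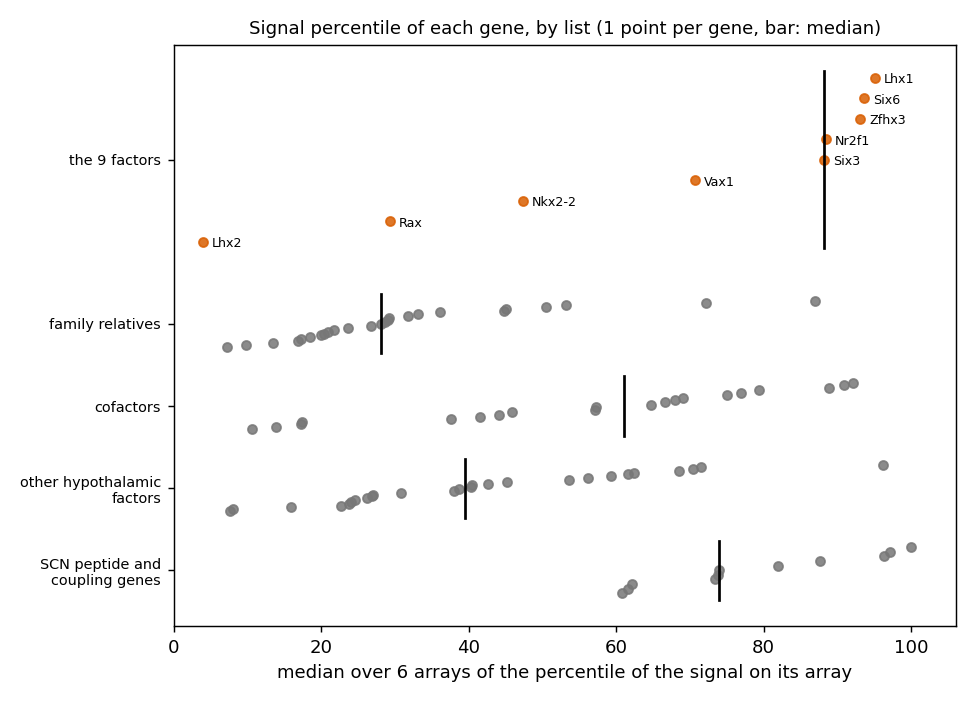
Each point is 1 gene, placed on the horizontal axis by the median over 6 arrays of its signal percentile among all probe sets of an array, with lists of genes on separate rows and a bar at each list's median. Of the 9 factors, 5 lie above the 88th percentile and Lhx2 lies at 3.97, and the list's median of 88.2 compares with 28.2 for family relatives.

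A filter that did not use the groups kept the 10000 probe sets with the highest third-ranked signal, 44.2% of the table, down to a signal of 128.1. It kept 9 of the 14 probe sets, from 6 genes, Lhx1, Six3, Six6, Zfhx3, Vax1 and Nr2f1. The single probe sets of Lhx2, Nkx2-2 and Rax and 2 of the 3 probe sets of Six3 fell below it, and for these the light comparison was fitted over the whole table.

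The promoters of 4 genes are shown because their genes were kept by the filter and share a sequence that was noticed on reading them. Fos is shown beside them as a light-induced gene. Each window runs from 250 bases before to 50 bases after the RefSeq start (build GRCm38.p6), and capitals mark, on either strand, each match to the cAMP response element TGACGTCA, its shorter core TGACG, the TATA element TATAA, the E-box CACGTG or the CCAAT box. The windows are chr11:84525485-84525784 on the minus strand for Lhx1, chr12:72939632-72939931 on the plus strand for Six6, chr17:85620584-85620883 on the plus strand for Six3, chr19:59170348-59170647 on the minus strand for Vax1 and chr12:85473640-85473939 on the plus strand for Fos.
Lhx1: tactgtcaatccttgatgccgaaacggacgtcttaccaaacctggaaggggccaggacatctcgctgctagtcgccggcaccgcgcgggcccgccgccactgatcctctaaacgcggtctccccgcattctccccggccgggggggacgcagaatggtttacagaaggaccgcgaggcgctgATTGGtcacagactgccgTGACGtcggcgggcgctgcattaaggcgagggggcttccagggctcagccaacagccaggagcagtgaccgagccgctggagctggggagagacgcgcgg
Six6: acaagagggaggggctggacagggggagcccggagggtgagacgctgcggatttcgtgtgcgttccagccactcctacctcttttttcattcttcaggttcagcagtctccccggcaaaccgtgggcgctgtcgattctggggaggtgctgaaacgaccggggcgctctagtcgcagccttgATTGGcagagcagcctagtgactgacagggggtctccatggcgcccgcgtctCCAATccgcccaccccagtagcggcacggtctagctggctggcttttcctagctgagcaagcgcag
Six3: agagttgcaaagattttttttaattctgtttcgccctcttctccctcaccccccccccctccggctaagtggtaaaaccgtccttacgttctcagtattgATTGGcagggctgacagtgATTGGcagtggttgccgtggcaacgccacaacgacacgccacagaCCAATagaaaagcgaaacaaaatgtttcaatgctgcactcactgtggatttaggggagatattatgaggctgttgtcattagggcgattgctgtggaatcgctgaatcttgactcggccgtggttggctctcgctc
Vax1: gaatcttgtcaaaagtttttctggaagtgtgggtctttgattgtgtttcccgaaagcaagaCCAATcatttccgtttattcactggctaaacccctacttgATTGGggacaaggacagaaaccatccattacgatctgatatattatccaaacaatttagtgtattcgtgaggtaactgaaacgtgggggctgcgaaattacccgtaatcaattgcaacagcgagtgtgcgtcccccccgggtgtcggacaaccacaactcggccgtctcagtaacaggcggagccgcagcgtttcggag
Fos: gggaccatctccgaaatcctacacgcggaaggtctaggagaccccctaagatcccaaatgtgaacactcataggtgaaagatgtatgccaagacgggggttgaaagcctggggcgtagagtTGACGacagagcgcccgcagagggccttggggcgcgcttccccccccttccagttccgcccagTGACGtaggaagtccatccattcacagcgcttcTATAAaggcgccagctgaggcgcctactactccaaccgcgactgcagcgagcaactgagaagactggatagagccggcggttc

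RefSeq promoters were matched for 8 of the 9 genes, with 10 windows in all, and none for Rax. The full cAMP response element, through which phosphorylated CREB acts in light-stimulated SCN cells, was in 0 of the 8 genes' windows and in 1.79% of 32851 promoters of the same length. The core TGACG was found in Lhx1, at position -50 from the start, and in Lhx2, at -81, and in 20.8% of all promoters. A TATAA match lay at -32 on the minus strand of the Nkx2-2 window, and 24.9% of promoters held one. The E-box CACGTG, which CLOCK and BMAL1 bind, was in Nkx2-2 at -173 and in 7.15% of promoters. The Fos window held TGACG at -129 and -66 and TATAA at -33, and it too held no match to the full element. Lack of the full element therefore does not separate the 8 genes from this light-induced gene. Exact matches in this window miss elements that lie farther from the start or differ in a letter.

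The longer form CCAATC, which overlaps CCAAT and is bound by the NF-Y complex, was searched for on both strands after the sequences had been read. It was found in the windows of 4 genes and in 16.1% of all promoters. Its positions were -69 in Lhx1, -69 and -16 in Six6, -151 and -132 in Six3, and -189 and -150 in Vax1. CCAAT itself was in the same number of genes, 4, and in 37.4% of promoters. The windows of Zfhx3 and Nr2f1, which the filter also kept, held neither form. Because the sequence was picked from these windows, its count in them is no test against the share of all promoters. All of these motif positions are matches of letters in a fixed window and were not tested against the signals.

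None of the 9 kept probe sets was called different between light pulse and sham light pulse at an adjusted p of 0.05, by limma or by a rewritten Cyber-T test, where limma called 0.07% of all 10000 kept probe sets, all of them higher. At an unadjusted p under 0.05, limma counted 1 of the 9 (Vax1), beside 4.27% of all kept probe sets, and Cyber-T counted the same 1, beside 4.25%. Of the 9, 3 had estimates above 0 and 6 below, and 7 lay within a log2 fold change of 0.5 of no difference. Their median log2 fold change was -0.05, against 0.00 over all kept probe sets, and their median absolute log2 fold change was 0.07, against 0.26. The typical kept probe set thus also lay within 0.5, and the 9 include 3 probe sets of Zfhx3 and 2 of Lhx1. In 0 of the 9 did the groups fail to overlap, beside 5.55% of kept probe sets with the light pulse higher and 4.48% with it lower. Of the 5 probe sets that were not kept, 0 passed an adjusted or an unadjusted p of 0.05 in the limma fit of all probe sets, beside 0.0354% and 4.71% of the table. In 1 of the 5 the groups did not overlap, with the light pulse lower, beside 3.64% of all probe sets with it lower and 6.68% with it higher. The median residual SD of the log2 signals of the 9 was 0.607, against 0.420 over all kept probe sets. Because the tissue was measured in bulk, fewer cells of a type and less RNA per cell cannot be told apart in any of these values.

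**Figure D2:**
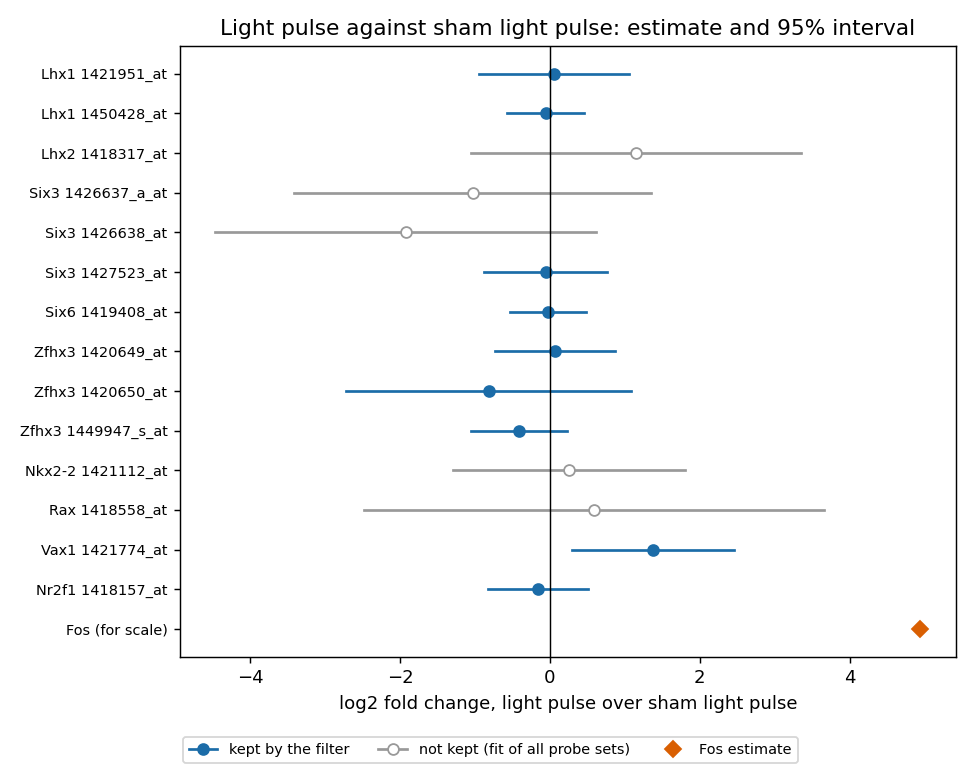
Points are log2 fold changes of light pulse over sham light pulse for the 14 probe sets and lines are 95% intervals from limma (3 arrays per group), filled where the filter kept the probe set and open where it did not. The interval of Vax1 alone lies above 0 (0.29 to 2.46), and Fos is drawn as an estimate without its interval, at 4.94.

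Lhx1 encodes a LIM-homeodomain factor required for the late differentiation of SCN neurons. Its brighter probe set, 1450428_at, had signals of 3058, 3475 and 4473 on the 3 light pulse arrays, against 3663, 3948 and 3695 on the 3 sham light pulse arrays. The light pulse arrays included both the lowest and the highest of the 6, so the sham light pulse values lay inside their range. The log2 fold change was -0.06 (SE 0.24, 95% interval -0.56 to 0.45, limma adjusted p = 0.989), an interval of 0.676 to 1.37 as a fold.

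The second Lhx1 probe set, 1421951_at, derived from the same source sequence, was dimmer and more scattered. It gave 661, 1243 and 275 on the light pulse arrays, against 615, 414 and 797 on the sham light pulse arrays. Again the highest and the lowest values were both from light pulse arrays, here arrays 2 and 3. Its log2 fold change was 0.05 (SE 0.46, 95% interval -0.95 to 1.05, limma adjusted p = 0.99). Light pulse array 3 was thus the highest for 1450428_at and the lowest for 1421951_at.

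Lhx2, a relative of Lhx1 needed for the eye field and for forming the SCN in the mouse embryo, was close to the bottom of the array. Probe set 1418317_at had signals of 30.1, 2.2 and 4.3 on the light pulse arrays, against 2.7, 4.2 and 2.3 on the sham light pulse arrays. All 6 lay below the lowest kept signal of 128.1, and apart from light pulse array 1 no array exceeded 4.3. The fit of all probe sets gave a log2 fold change of 1.15 (SE 1.05, limma adjusted p = 0.963), with overlapping groups. It was 0.0526 without light pulse array 1, 1.94 without light pulse array 2 and 0.20 with an offset of 50 added to the signals.

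Six6 encodes a homeodomain factor without which the mouse SCN does not form. Its only probe set, 1419408_at, read 2502, 2840 and 2820.5 on the light pulse arrays, against 3092, 2501 and 2691 on the sham light pulse arrays. The sham light pulse arrays held both extremes, and the highest of the 6 values was 1.24 times the lowest. This gave a log2 fold change of -0.02 (SE 0.24, 95% interval -0.53 to 0.49, limma adjusted p = 0.994), or 0.695 to 1.40 as a fold.

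Six6 was among the most even of the kept probe sets. Its residual SD within groups was 0.132 on the log2 scale, and 97.7% of kept probe sets had a larger one. Among 821 kept probe sets of like signal, with a median residual SD of 0.298, the share with a larger one was 95.9%, and for Lhx1 1450428_at it was 81.6%. The limma interval of Six6 is wider than this spread alone would give, since limma draws each variance towards that of other probe sets of like signal.

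Six3, the close relative of Six6 that acts earlier in forebrain and eye formation, had 3 probe sets at unlike levels. The brightest, 1427523_at, gave 1825, 1273 and 881 on the light pulse arrays, against 2243, 809 and 1260 on the sham light pulse arrays. Here the sham light pulse values spanned the light pulse ones on both sides. The estimate on the log2 scale was -0.05 (SE 0.38, 95% interval -0.87 to 0.76, limma adjusted p = 0.99).

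The other Six3 probe sets, built on a different source sequence, had median percentiles of 23.5 (1426638_at) and 12.0 (1426637_a_at), against 88.2 for 1427523_at. Probe set 1426638_at read 17.2, 12.1 and 4.0 on the light pulse arrays, against 84.9, 25.5 and 21.0 on the sham light pulse arrays. It was the only 1 of the 14 whose groups did not overlap, being lower on every light pulse array, as were 3.64% of all probe sets, while in 6.68% the light pulse arrays were all higher. Its log2 fold change was -1.92 (SE 1.21, 95% interval -4.46 to 0.62, limma adjusted p = 0.963), and all 6 signals were below the lowest kept signal. Probe set 1426637_a_at had 7.2, 6.1 and 4.2 on the light pulse arrays, against 3.6, 19.1 and 22.8 on the sham light pulse arrays, with overlapping groups and a log2 fold change of -1.03 (SE 1.13, limma adjusted p = 0.963). That estimate ran between -1.87 (without sham light pulse array 1) and -0.54 (without sham light pulse array 3), and with an offset of 50 the values were -0.56 for 1426638_at and -0.21 for 1426637_a_at. The annotation places the noncoding gene Six3os1 over Six3, and it was not analysed here.

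Zfhx3, a very large factor with both zinc fingers and homeodomains whose mutation shortens the circadian period in mice, also had 3 probe sets, all of 1 source sequence. The brightest, 1449947_s_at, read 3186, 1844 and 1890 on the light pulse arrays, against 3947, 2936 and 2261 on the sham light pulse arrays. Light pulse arrays 2 and 3 lay below all of the sham light pulse arrays and light pulse array 1 lay among them. Its log2 fold change was -0.41 (SE 0.30, 95% interval -1.05 to 0.23, limma adjusted p = 0.963), and it ran between -0.67 (without light pulse array 1) and -0.21 (without sham light pulse array 1) when each array was left out. The ending of the ID marks probes that may match several transcripts.

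The second Zfhx3 probe set did not share this estimate. At 1420649_at the signals were 1624, 865 and 938 on the light pulse arrays, against 1665, 631 and 1080 on the sham light pulse arrays, with overlapping groups. The log2 estimate there was 0.07 (SE 0.37, 95% interval -0.73 to 0.87, limma adjusted p = 0.989). The third, 1420650_at, was dim, with 155, 94.5 and 19.7 on the light pulse arrays, against 142, 133 and 83.6 on the sham light pulse arrays. Its log2 fold change of -0.82 (SE 0.89, 95% interval -2.72 to 1.09, limma adjusted p = 0.963) rests largely on light pulse array 3, without which it was 0.06. Array 1 of each group was the highest of its group at all 3 probe sets of Zfhx3 and at Six3 1427523_at.

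**Figure D3:**
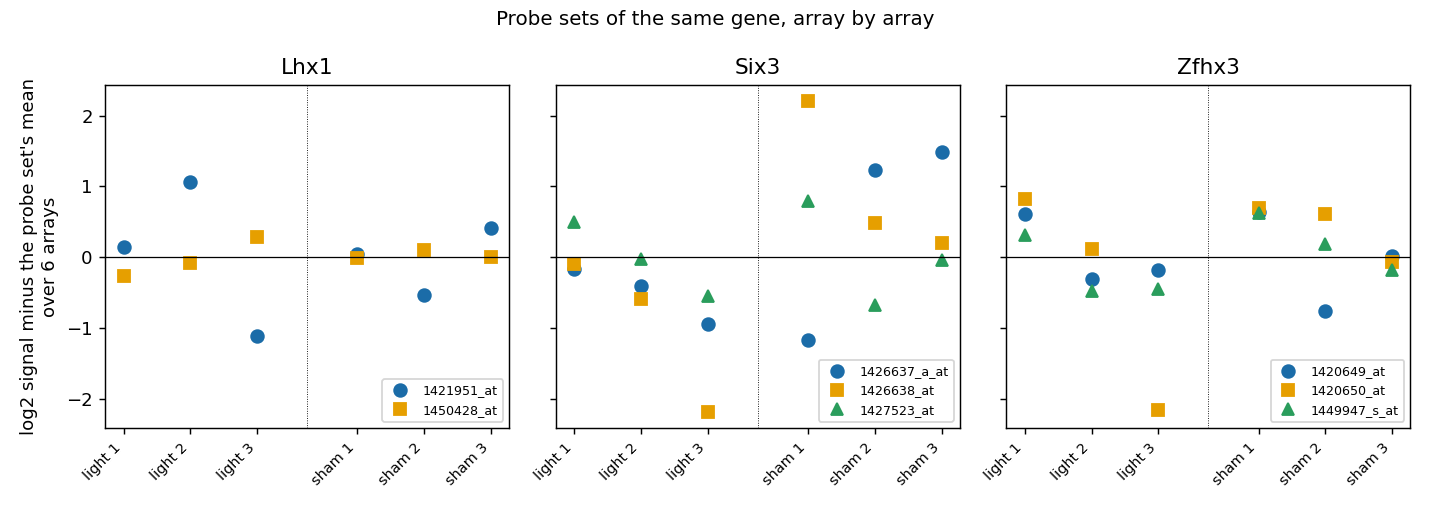
The vertical axis gives the log2 signal of each probe set minus its own mean over the 6 arrays, for Lhx1, Six3 and Zfhx3, with the light pulse arrays left of the sham light pulse arrays and 1 marker shape per probe set. The probe sets of 1 gene do not always move together, as for Lhx1 on light pulse array 3, where 1450428_at had its highest signal (4473) and 1421951_at its lowest (275). For Zfhx3, array 1 of each group was the highest of its group at all 3 probe sets.

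Vax1, the ventral anterior homeobox factor of the optic stalk and basal forebrain, had the highest estimate among the kept probe sets. Probe set 1421774_at read 254, 788 and 525 on the light pulse arrays, against 322, 93.8 and 198 on the sham light pulse arrays. Light pulse arrays 2 and 3 were above all sham light pulse arrays, but light pulse array 1 was below sham light pulse array 1, so the groups overlapped. Vax1 had a log2 fold change of 1.38 (SE 0.50, 95% interval 0.29 to 2.46), that is, a fold of 2.60 (1.22 to 5.51). The unadjusted p was 0.0166 by limma and 0.0104 by Cyber-T, and the adjusted p of 0.963 by limma and 0.955 by Cyber-T did not pass the threshold. Leaving out each array in turn moved the log2 fold change between 0.90 (without sham light pulse array 2) and 1.82 (without light pulse array 1), and without light pulse array 3, the library with the high Ttr signal, it was 1.30.

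Nkx2-2, a homeodomain factor of the ventral neural tube and hypothalamus that is also known in the oligodendrocyte lineage, had intermediate signals. Probe set 1421112_at gave 61.2, 82.6 and 129 on the light pulse arrays, against 70.1, 102 and 53.4 on the sham light pulse arrays. Only light pulse array 3 reached the lowest kept signal, and the groups overlapped. The log2 fold change was 0.26 (SE 0.74, limma adjusted p = 0.986). Oligodendrocyte genes were well represented in the same pools, with 9 of 10 marker genes on the array, 7 of them kept, and a summed signal (1 probe set per gene) of 40196 to 54874 on light pulse arrays against 31240 to 56742 on sham light pulse arrays. Mbp and Cnp were the brightest of these genes, and such a sum weights bright genes most. The part of oligodendrocytes in the Nkx2-2 signal was not tested.

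Rax, the retina and anterior neural fold homeobox factor that remains active in tanycytes lining the third ventricle, was not kept. Probe set 1418558_at had 70.6, 2.0 and 80.6 on the light pulse arrays, against 33.1, 4.1 and 24.6 on the sham light pulse arrays. In both groups array 2 was far below the others, and the groups overlapped. Its log2 fold change of 0.59 had an SE of 1.46 (limma adjusted p = 0.98), and it was -0.33 without light pulse array 3. Of the tanycyte and ependyma markers 7 of 10 genes were on the array and 2 were kept, Vim and Dio2. The summed signal for the list was 1736 to 2124 on light pulse arrays and 1470 to 2683 on sham light pulse arrays. Most of it was Vim, with 1542, 1551 and 1758 on the light pulse arrays and 2446, 1284 and 1238 on the sham light pulse arrays. Of the 7 genes, 4 were below the lowest kept signal on every array, so the sum mainly describes Vim.

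Nr2f1 encodes the orphan nuclear receptor COUP-TFI, a regulator of forebrain patterning and optic nerve development. Its probe set 1418157_at read 984, 1216 and 1294 on the light pulse arrays, against 1785, 1366 and 868 on the sham light pulse arrays. The sham light pulse arrays again held both the highest and the lowest value. Nr2f1 had a log2 fold change of -0.15 (SE 0.31, 95% interval -0.82 to 0.52, limma adjusted p = 0.973).

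**Figure D4:**
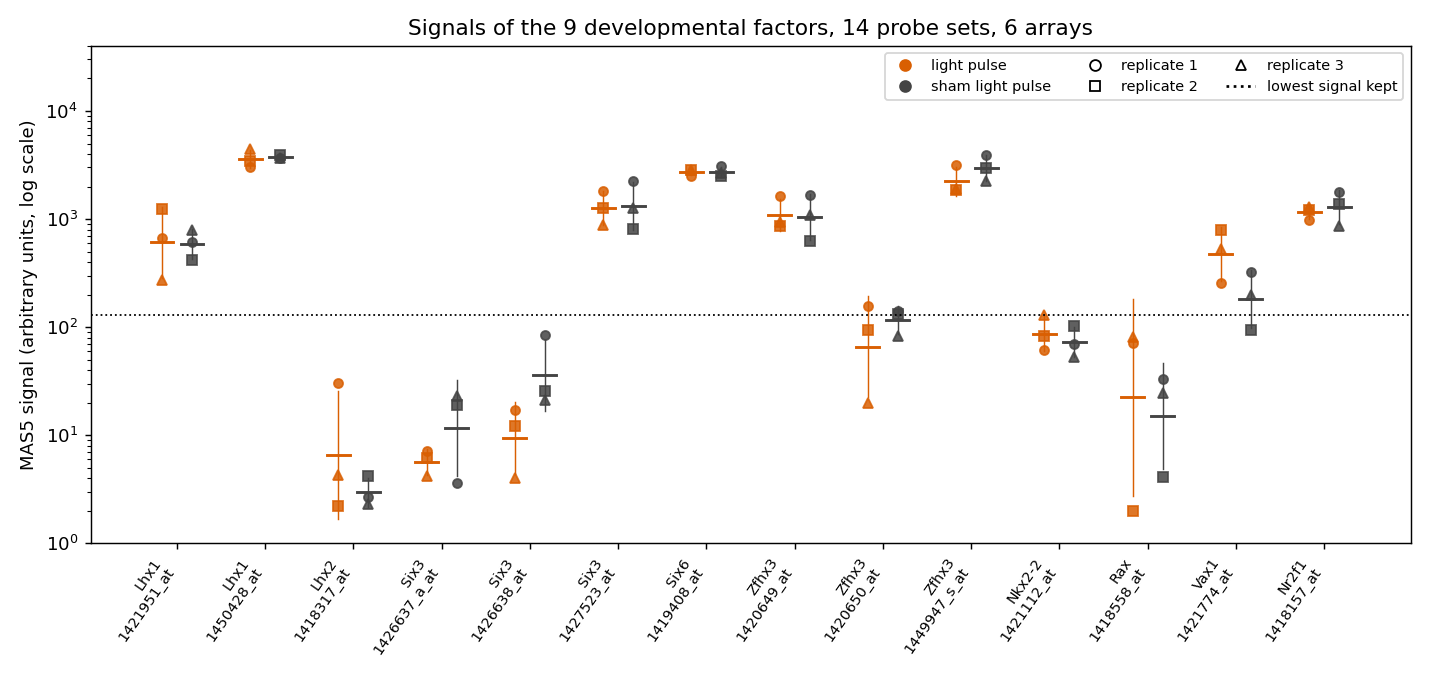
Signal in arbitrary units (log axis) of the 14 probe sets on the 3 light pulse arrays (orange, left of each pair) and the 3 sham light pulse arrays (grey, right), with 1 point per array, a bar at the geometric mean, a thin line of 1 SD of the log2 signals either way and a dotted line at the lowest kept signal of 128.1. Six6 stays between 2501 and 3092, whereas Rax reaches from 2.0 to 80.6.

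The profiles of the 2 brightest genes were compared with those of 6549 genes, as the root mean square difference of centred log2 signals over the 6 arrays. Closest to Lhx1 were Rnf113a1 (0.0684), C1d (0.0691) and Btf3l4 (0.0730), where the median gene was at 0.409. Closest to Six6 were Ssr4 (0.0300), Gnb5 (0.0471) and Arf3 (0.0523), against a median of 0.392. These are likenesses over 6 shared arrays only, and a flat profile is close to any other flat profile.

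Most relatives of the 9 genes lay lower on the array. Of 28 relatives in the same families, such as Lhx5, Six2, Zfhx4, Nkx2-1, Vax2 and Nr2f2, 25 were on the array, and the filter kept 2 of their 36 probe sets, against 9 of the 14 of the 9 genes. The median percentile of the relatives was 28.2. Neither kept probe set was called. Nkx6-2, a factor of ventral neurons and myelinating cells, read 490.2, 475 and 312 on the light pulse arrays, against 310.1, 143 and 205 on the sham light pulse arrays, so the groups did not overlap, as in 5.55% of kept probe sets with the light pulse higher. Its log2 fold change of 1.00 (SE 0.39) had an unadjusted p of 0.0224 and an adjusted p of 0.963 by limma. Nr2f6, a COUP-TF relative, had a log2 fold change of 0.35 (SE 0.30, limma adjusted p = 0.963).

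Partner genes were kept more often than relatives (40.6% against 5.56% of probe sets), but close to the 44.2% kept over the whole table. Of 22 cofactor genes, such as the LIM-binding Ldb and Ssbp proteins, the Eya and Dach partners of Six3 and its relatives and the Tle corepressors, 20 were on the array and 13 of 32 probe sets were kept, with 0 called, 7 above 0 and 6 below. The median percentile was 61.0 and the median log2 fold change of the kept probe sets 0.10. Tle4, a corepressor that can bind Six3, was at -0.13 (SE 0.27), and Ssbp2, a partner of LIM-domain complexes, at -0.10 (SE 0.32). Among 33 other hypothalamic factors 26 were on the array, with 7 of 40 probe sets kept and 0 called. Of these Sox2, a factor of neural progenitors that persists in SCN neurons, was the highest, with a log2 fold change of 0.10 (SE 0.28), and Sox3 had 0.24.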

How the data were processed

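SCN RNA from 3 light pulse and 3 sham light pulse pools was hybridised to Affymetrix Mouse 430A 2.0 arrays, 3 mice per pool. The authors deposited a linear signal intensity per probe set, made with MAS5 (version not given in the sources used here) and scaled per array, without present calls. Log2 intensities with no offset were compared with limma 3.58.1 in R 4.3.3 (two-sided moderated tests by lmFit and eBayes, variances following an intensity trend, p-values adjusted by Benjamini-Hochberg, threshold 0.05). The fit used 10000 probe sets, those whose rank 3 signal among the 6 arrays was highest, which replaced the study's filter on present calls. Cyber-T was rewritten from its description (prior weight 10), and not run in the original software. Both steps were tested on simulated data. Array signals give no counts, and the number of arrays limits the precision. An exact permutation test of 3 against 3 cannot go below 0.1.

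Gene names came from the platform annotation: 20380 probe sets had 1 symbol, 691 several and 1555 none, and only the first were named. The genes named are the 9, those called in any other list (or, with 0 called, its 2 brightest by mean log2 signal), the 3 closest profiles of the 2 brightest probe sets, and Fos and Egr1. The choroid plexus markers on the array were all named as well. The members and lists were chosen with earlier results of these data known. Alternatives were no filter, a filter of 5000 probe sets, quantile or 75th percentile scaling, an offset of 50, no intensity trend, Cyber-T, a replicate block and leaving out each array.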

Additional observations from a re-analysis of the deposited data

How the results depend on the processing

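No member probe set was called in any setting, and the lowest adjusted p of one was 0.855 over 14 alternatives. Of 184 recomputed fold changes 167 kept their direction and 17 reversed, 16 of them without 1 array. For the probe sets with a reversal on leaving out an array, the log2 fold changes without each array ranged over -0.46 to 0.63 (Lhx1 1421951_at), -0.21 to 0.066 (Lhx1 1450428_at), -0.40 to 0.33 (Six3 1427523_at), -0.0868 to 0.0663 (Six6), -0.29 to 0.41 (Zfhx3 1420649_at), -1.43 to 0.0582 (Zfhx3 1420650_at), -0.031 to 0.51 (Nkx2-2), -0.34 to 2.34 (Rax) and -0.43 to 0.0872 (Nr2f1). With quantile normalization Six6 was at 0.0284. The median of the kept member probe sets lay between -0.20 and 0.09 without 1 array, and 8 to 9 were kept. The cause was not tested.

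Over all kept probe sets 7 were called, 4 with no intensity trend and 5 to 8 without 1 array. Deviations of same-numbered arrays from their group means correlated at 0.112, -0.206 and -0.136, and those of differently numbered arrays at -0.128 to 0.222. With 3 arrays per group these values cannot settle whether replicate numbers pair the arrays. With the replicate block 6 were called over all kept probe sets and 0 members. Percentiles among genes were 93.81 for Lhx1, 84.91 for Six3, 92.0 for Six6, 91.32 for Zfhx3, 39.58 for Nkx2-2 and 85.28 for Nr2f1. As the mean over a gene's probe sets they were 88.24 for Lhx1, 43.31 for Six3 and 77.14 for Zfhx3.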

Other observations

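Some markers of other cells had kept probe sets in the captured tissue, without calls in any list. Astrocyte genes had 12 of 18 probe sets kept, led by Gja1 and Aqp4, with a median log2 fold change of -0.01, and microglial genes 6 of 11, led by Csf1r and C1qb, with -0.02. Oligodendrocyte genes, led by Mbp and Cnp, had 17 of 23 kept and a median of 0.02, and precursor genes, led by Sox10 and Pdgfra, 3 of 9 and -0.20. Endothelial genes, led by Cldn5 and Flt1, had 2 of 9 kept, at -0.47 and -1.55. Genes of neighbouring hypothalamic neurons had 3 of 12 kept, led by Hdc and Pomc, with a median of 0.00. Hdc was at 0.01 and Pomc at -1.09 (SE 0.43, limma unadjusted p = 0.0242, adjusted p = 0.963). Choroid plexus genes had 2 of 8 kept, both of Ttr. SCN peptide and coupling genes had 13 of 16 kept, 9 above 0 and 4 below, with a median of 0.19. At an unadjusted p under 0.05 limma counted 2 of these 13, 1 of the 2 endothelial and 1 of the 3 neighbouring-neuron probe sets. It counted 0 in the other lists of this paragraph, beside 4.27% of all kept probe sets.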
